A study of Mus musculus with 8 samples.

Results

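The genes described here build triglyceride in the liver and pass it to secreted lipoproteins, together with Pnpla3, a lipid droplet protein. They are Pnpla3, Gpam, Agpat2, Lpin1, Lpin2, Dgat1, Dgat2, Mogat1, Mttp and Acss2, 10 of the 56953 gene identifiers counted, chosen by name. All 10 passed the filter on low counts and were among the 15669 genes tested. The data are whole-liver RNA counts from 4 HSC-PCK1-KO samples, labelled as lacking PCK1 in hepatic stellate cells, and 4 control samples of WT genotype. The mice, all male adults, were kept for 8 weeks on CDHFD, a high-fat diet without enough choline that fattens and scars the liver. All libraries carry the same batch label, and the labels used here do not name the promoter that drove the deletion. The samples of a group are called biological replicates. Each title also carries a number of its own in brackets, but the labels do not state that it stands for a single mouse. The p-values for group differences below set each difference against the spread between these samples.

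Liver triglyceride is made by adding fatty acyl chains to glycerol-3-phosphate. Acss2 makes cytosolic acetyl-CoA from acetate, a building block of those chains. Gpam adds the first chain, Agpat2 the next, the lipins remove the phosphate, and Dgat1 and Dgat2 add the last chain, while Mogat1 reaches the same diacylglycerol from monoacylglycerol. Mttp loads the product onto apolipoprotein B for export as very low density lipoprotein (VLDL). Pnpla3 sits on lipid droplets, and its transcript and those of Gpam, Lpin1 and Acss2 are known targets of the SREBP transcription factors, which insulin, feeding and low sterol activate. A choline-deficient diet limits phosphatidylcholine, the phospholipid coat that VLDL needs.

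Library totals ranged from 44695439 to 49477255 counts. Levels are in CPM, counts scaled by the library total and a TMM factor. Pck1, the targeted gene, had 339, 795, 593 and 948 CPM in HSC-PCK1-KO replicates 1 to 4, against 1002, 2012, 551 and 1028 CPM in control replicates 1 to 4. The groups overlapped, and since hepatocytes express Pck1 strongly, its level in whole liver cannot show whether stellate cells lost it. Alb, the albumin gene of hepatocytes, ranged from 58216 to 71386 CPM in HSC-PCK1-KO livers and from 60302 to 80911 CPM in controls, here without the TMM factor. In whole tissue, fewer cells of a type and less RNA per cell cannot be told apart. Adipocytes also express most of the 10 genes, and the 8 adipocyte markers summed to 101 to 114 CPM in HSC-PCK1-KO libraries, against 92.5 to 131 CPM in control libraries, with control replicate 1 the highest. Of the 8, 4 passed the filter on low counts, 2 with a negative and 2 with a positive log2 fold change. These were Adrb3, Pde3b, Cfd and Cidec, and Cfd and Cidec are also among the PPAR-gamma fatty liver genes below. Among the other 4, Adipoq and Plin1 reached at most 0.0422 and 0.0211 CPM in any library, and Lep was at 0 in all 8. These adipocyte levels and all sums of marker levels, here and below, are also without the TMM factor.

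1 control library stood apart for these genes. Control replicate 1 had the highest level of all 8 libraries in 6 of the 10, namely Pnpla3, Gpam, Lpin1, Lpin2, Mttp and Acss2. Over the 12563 genes with a mean of at least 1 CPM it was the highest in 9.86%, where an even share is 12.5%. Its Pnpla3 level was 6.23 times the mean of the other 3 controls, a ratio above that of 99.98% of those genes, and its Mogat1 and Gpam levels were 2.52 and 2.51 times that mean. Fasn, the fatty acid synthase gene, was 3.13 times as high there as in the other controls, while Srebf1, which encodes SREBP-1, was 1.15 times as high. The main results are therefore given with and without this library.

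**Figure D1:**
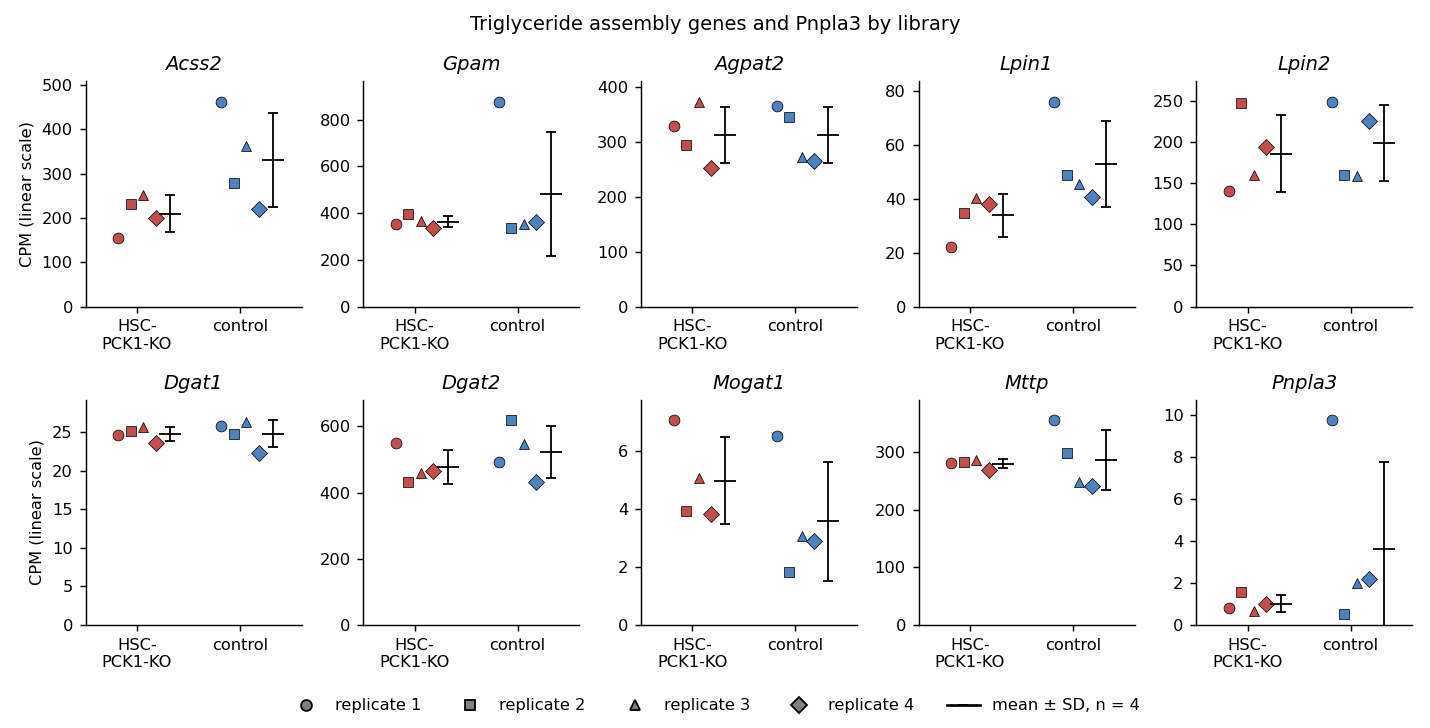
Level of each of the 10 genes in each library, in CPM on a linear axis that starts at 0, with HSC-PCK1-KO on the left and control on the right of each panel. Symbols are replicates 1 to 4, and the bar is the mean with its SD (n = 4), cut at 0 for Pnpla3. Control replicate 1, the blue circle, is the highest point for Acss2, Gpam, Lpin1, Lpin2, Mttp and Pnpla3.

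None of the 10 genes passed the threshold, an adjusted p of 0.05 by edgeR's quasi-likelihood F-test, and 0 of all 15669 genes did (0%). At an unadjusted p under 0.05 there were 2 of the 10, Lpin1 and Acss2, both lower in HSC-PCK1-KO livers, where 2.36% of all genes reached that p, 1.34% lower and 1.02% higher. Neither reached it with control replicate 1 left out (unadjusted p = 0.0585 for Lpin1 and 0.0531 for Acss2 in edgeR's fit). There 0 of the 10 were lower and 1, Mogat1, was higher at that p, beside 196 lower and 169 higher of all 15871 genes tested. The count of lower genes was 3 without control replicate 2, beside 246 of all 15945. It was 1 without control replicate 3, beside 218 of 15901, and 1 without HSC-PCK1-KO replicate 2, beside 252 of 15900. DESeq2 also called 0 of the 10, with 3 at an unadjusted p under 0.05, beside 422 of 28804 genes in either direction. The limma-voom fit called 0, with 2 at that p, beside 371 of 15669. Of the 10 log2 fold changes (HSC-PCK1-KO over control), 8 were negative, with a median of -0.12, beside 51.8% negative and a median of -0.0055 over all genes tested. With control replicate 1 left out only 4 were negative and the median was 0.024. For 9 of the 10, all but Mogat1, a 1.5-fold rise lay outside the 95% interval. For 6, all but Pnpla3, Gpam, Lpin1 and Acss2, a 1.5-fold fall did. With some single libraries left out, the intervals of Lpin2 and Mogat1 took in such a fall. The lower end was a log2 fold change of -0.69 for Lpin2 without HSC-PCK1-KO replicate 2, and -0.63 for Mogat1 without control replicate 4.

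**Figure D2:**
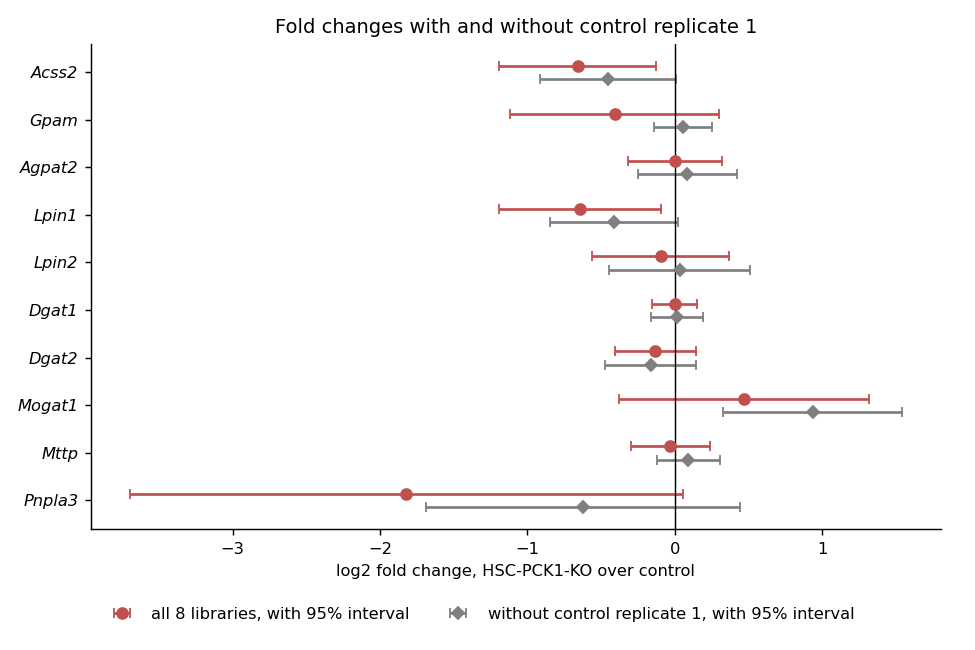
Log2 fold change of each gene, HSC-PCK1-KO over control, with its 95% interval from edgeR's quasi-likelihood fit, from all 8 libraries (red circles) and without control replicate 1 (grey diamonds). Leaving out that library moves Pnpla3 to -0.62 in place of -1.82 and Mogat1 to 0.94 in place of 0.47.

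Acss2 (ENSMUSG00000027605.19), the acetate-activating enzyme, had 156, 230, 252 and 200 CPM in HSC-PCK1-KO replicates 1 to 4, against 463, 279, 363 and 219 CPM in control replicates 1 to 4. HSC-PCK1-KO replicates 2 and 3 lay above control replicate 4, so the groups overlapped. The means were 209.5 ± 42.0 CPM in HSC-PCK1-KO livers, against 331 ± 106 CPM in controls (SD, n = 4 each). The log2 fold change was -0.66 (SE 0.23, 95% interval -1.19 to -0.13), with an unadjusted p of 0.0204 and an adjusted p of 0.9998 by the same edgeR test. Leaving out control replicate 1 gave -0.45, leaving out HSC-PCK1-KO replicate 1 gave -0.54, and it was negative without each of the other libraries. By an exact two-sided permutation test on log2 CPM the difference had p = 0.0857, where 4 against 4 cannot give a p below 0.0286.

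Lpin1 (ENSMUSG00000020593.17), the phosphatidic acid phosphatase that also acts as a nuclear co-regulator, had 22.1, 34.9, 40.4 and 38.1 CPM in HSC-PCK1-KO replicates 1 to 4, against 76.2, 48.9, 45.7 and 40.8 CPM in control replicates 1 to 4. Every HSC-PCK1-KO library was below every control library, by a margin of 40.4 against 40.8 CPM, and Lpin1 was the only 1 of the 10 whose groups did not overlap, beside 1.53% of all genes. Its log2 fold change was -0.64 (SE 0.24, 95% interval -1.19 to -0.09), with an unadjusted p of 0.0274 and an adjusted p of 0.9998. The exact permutation p was 0.0286, the smallest that 4 against 4 allows. The log2 fold change came to -0.41 without control replicate 1, the highest library, and to -0.49 without HSC-PCK1-KO replicate 1, the lowest.

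Lpin2 (ENSMUSG00000024052.18), the other main lipin of liver, had 141, 248, 161 and 194 CPM in HSC-PCK1-KO replicates 1 to 4, against 250, 161, 159 and 226 CPM in control replicates 1 to 4. Both groups spread over nearly the same range. Its log2 fold change was -0.10 (SE 0.21), and the sign changed with control replicate 1 left out (0.032) or HSC-PCK1-KO replicate 1 left out (0.013). The log2 ratio of Lpin1 to Lpin2 counts, which does not depend on library scaling, was -2.67, -2.83, -1.99 and -2.35 in HSC-PCK1-KO replicates 1 to 4, against -1.71, -1.72, -1.80 and -2.47 in control replicates 1 to 4. Control replicate 4 lay inside the HSC-PCK1-KO range and the other 3 controls above it. The difference was -0.54 (exact permutation p = 0.0857, adjusted p = 0.343 over 4 ratios).

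Gpam (ENSMUSG00000024978.12), the mitochondrial acyltransferase of the first step, had 352, 397, 368 and 338 CPM in HSC-PCK1-KO replicates 1 to 4, against 878, 334, 355 and 362 CPM in control replicates 1 to 4. The other 7 libraries stood within 1.19-fold of each other, and control replicate 1 alone was apart. Its log2 fold change of -0.41 (SE 0.31) was 0.054 (SE 0.088) without that library. Agpat2 (ENSMUSG00000026922.14), the acyltransferase of the next step, had 329, 295, 373 and 252 CPM in HSC-PCK1-KO replicates 1 to 4, against 365, 346, 273 and 265 CPM in control replicates 1 to 4. The means were 312 ± 51.3 CPM in HSC-PCK1-KO livers, against 312 ± 50.7 CPM in controls (SD, n = 4 each), and the 95% interval of the log2 fold change ran from -0.32 to 0.32.

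Dgat1 (ENSMUSG00000022555.13), an acyltransferase of the last step, was the steadiest of the 10. It had 24.6, 25.2, 25.7 and 23.6 CPM in HSC-PCK1-KO replicates 1 to 4, against 25.8, 24.8, 26.3 and 22.4 CPM in control replicates 1 to 4. Its log2 fold change was -0.0023, with a 95% interval from -0.16 to 0.15, and its sign changed with the scaling and the filter. Its spread within groups on the log2 scale exceeded that of only 12.1% of genes with at least 1 CPM. Dgat2 (ENSMUSG00000030747.6), the unrelated enzyme of the same reaction, had 551, 433, 458 and 464 CPM in HSC-PCK1-KO replicates 1 to 4, against 491, 619, 548 and 433 CPM in control replicates 1 to 4. The groups overlapped. The log2 fold change was -0.13, with a 95% interval from -0.41 to 0.14. The log2 ratio of Dgat2 to Dgat1 averaged 4.26 ± 0.17 in HSC-PCK1-KO and 4.39 ± 0.18 in control livers (SD, n = 4 each, exact permutation p = 0.371, adjusted p = 0.495 over 4 ratios).

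Mogat1 (ENSMUSG00000012187.14), the monoacylglycerol acyltransferase, had the highest log2 fold change of the 10. It had 7.08, 3.94, 5.09 and 3.82 CPM in HSC-PCK1-KO replicates 1 to 4, against 6.53, 1.82, 3.09 and 2.89 CPM in control replicates 1 to 4. All 4 HSC-PCK1-KO libraries were above 3 of the 4 controls, and control replicate 1 lay near the top. Its log2 fold change was 0.47 (SE 0.37, 95% interval -0.38 to 1.32), with an unadjusted p of 0.239 and an adjusted p of 0.9998. Once control replicate 1 was left out the groups did not overlap. The log2 fold change was then 0.94 (95% interval 0.33 to 1.54), with an unadjusted p of 0.00675 and an adjusted p of 0.9999. That library was singled out by the levels of these same 10 genes, Mogat1 among them, so these values are a description only. Leaving out HSC-PCK1-KO replicate 1 or control replicate 2 gave log2 fold changes of 0.25 and 0.26. Of its annotated exon bases 12.8% are shared with BC035947, a gene on the opposite strand that averaged 0.207 CPM, and how the counting used strand is not stated. Smaller shares of Mttp, Acss2 and Agpat2 exon bases, 7.36%, 3.89% and 3.00%, are shared with Trmt10a, Gss and Egfl7 on their opposite strands.

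Mttp (ENSMUSG00000028158.15), the lipid transfer subunit for VLDL assembly, had 282, 284, 287 and 269 CPM in HSC-PCK1-KO replicates 1 to 4, against 356, 299, 249 and 242 CPM in control replicates 1 to 4. The HSC-PCK1-KO libraries lay close together inside the control range, with an SD of 7.88 CPM in HSC-PCK1-KO livers, against 52.9 CPM in controls (n = 4 each). The log2 fold change was -0.031, with a 95% interval from -0.30 to 0.24. Ratios of a synthesis gene to Mttp, the export gene, also overlapped between the groups. The log2 ratio of Gpam to Mttp counts averaged 0.37 ± 0.076 in HSC-PCK1-KO and 0.64 ± 0.48 in control livers (SD, n = 4 each, exact permutation p = 0.371, adjusted p = 0.495). The log2 ratio of Dgat2 to Mttp counts averaged 0.76 ± 0.16 in HSC-PCK1-KO and 0.87 ± 0.30 in control livers (SD, n = 4 each, exact permutation p = 0.514, adjusted p = 0.514).

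Pnpla3 (ENSMUSG00000041653.6) is a patatin-like protein of lipid droplets, and it had the widest spread of the 10. It had 37, 79, 32 and 49 counts in HSC-PCK1-KO replicates 1 to 4, against 480, 23, 94 and 113 counts in control replicates 1 to 4. In CPM these were 0.827, 1.59, 0.665 and 0.996 in HSC-PCK1-KO libraries, against 9.74, 0.542, 1.99 and 2.16 in control libraries. Control replicate 1 was the highest and control replicate 2 the lowest of all 8, so the control group enclosed the HSC-PCK1-KO group. The ratio of the highest to the lowest library was 2.39 within HSC-PCK1-KO and 18 within control livers. Its spread within groups exceeded that of 99.4% of genes with at least 1 CPM. A predicted gene on the same strand, Gm49513, shares 6.78% of its exon bases and was not among the genes tested. The log2 fold change was -1.82 (SE 0.81, 95% interval -3.70 to 0.053), with an unadjusted p of 0.0553 and an adjusted p of 0.9998. The exact permutation p was 0.257. Leaving out control replicate 1, the highest library, gave -0.62 (unadjusted p = 0.216), and leaving out control replicate 2, the lowest, gave -2.18 (unadjusted p = 0.0109).

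Divided by exon length, the levels differed widely between steps. In CPM per kilobase of annotated exon, averaged over all 8 libraries, Dgat2 stood at 221 ± 29.6 and Agpat2 at 210 ± 31.7 (SD, n = 8), and Dgat2 was the higher of this pair in 5 libraries. Acss2 at 70.8 ± 25.9, Gpam at 66.6 ± 29.1 and Mttp at 64.3 ± 7.97 did not differ in level beyond their spread, with Acss2 above Gpam in 4 libraries and Gpam above Mttp in 2. Lpin2 followed at 30.7 ± 6.96, Dgat1 at 13.1 ± 0.69, Lpin1 at 7.0 ± 2.5, Mogat1 at 3.48 ± 1.48 and Pnpla3 at 1.76 ± 2.33. Over the 7 libraries other than control replicate 1, Pnpla3 stood at 0.954 ± 0.499 (SD, n = 7). Mttp was above Lpin2, Lpin2 above Dgat1 and Dgat1 above Lpin1 in all 8 libraries, while Lpin1 was above Mogat1, and Mogat1 above Pnpla3, in 7 of the 8. Lengths were of the basic gene annotation, with 3818 bases for Acss2, 4411 for Mttp, 1489 for Agpat2, 1231 for Mogat1 and 1313 for Pnpla3. The full annotation gives these genes 10163, 6206, 2130, 1558 and 1548 bases. The order therefore depends on the gene models, and it was not computed with the full annotation.

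**Figure D3:**
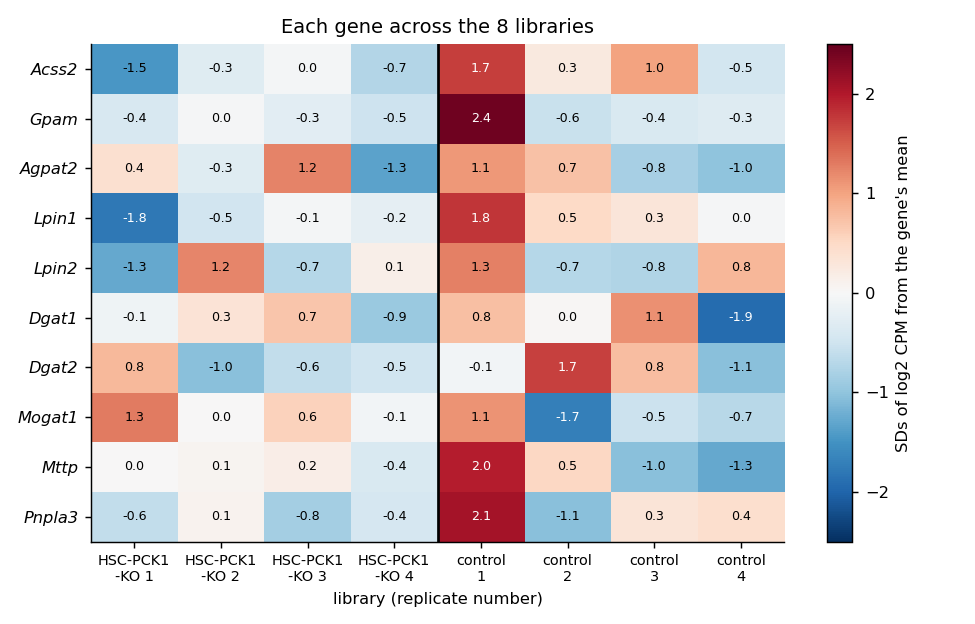
Each gene across the 8 libraries, as the number of SDs of its log2 CPM from its own mean, with HSC-PCK1-KO replicates 1 to 4 left of the black line and control replicates 1 to 4 right of it. Red is above and blue below the gene's mean. Control replicate 1 is red for all genes but Dgat2, and HSC-PCK1-KO replicate 1 is darkest blue for Acss2, Lpin1 and Lpin2.

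Correlations of log2 CPM over the 8 libraries were computed for all 45 pairs of the 10 genes, and 0 passed adjustment. Lpin1 and Acss2 were the closest pair, with r = 0.918 by Pearson's measure (exact permutation p = 0.00233, adjusted p = 0.105 over 45 pairs) and Spearman's rho = 0.857 (exact permutation p = 0.0107, adjusted p = 0.327). Without HSC-PCK1-KO replicate 1 and control replicate 1, the libraries farthest from the median of Lpin1, r was 0.695, and with each group centred on its own mean it was 0.848. Agpat2 and Mttp had r = 0.766 (exact permutation p = 0.0167, adjusted p = 0.299) and rho = 0.833 (exact permutation p = 0.0154, adjusted p = 0.327), with r = 0.926 without the 2 libraries farthest from the median of Agpat2. Pnpla3 and Gpam had r = 0.870 (exact permutation p = 0.0200, adjusted p = 0.299) and rho = 0.619 (exact permutation p = 0.115, adjusted p = 0.710), but r = 0.222 without control replicates 1 and 2, so that relation rests on those samples.

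The stretches before the start sites of Acss2, Lpin1, Gpam and Pnpla3 are shown because these 4 genes had the lowest log2 fold changes and the highest levels in control replicate 1. Each is the 250 bases before the gene's most upstream RefSeq start in build GRCm38.p6. The bases read 5′ to 3′ on the gene's strand, with motif matches in capitals (the Lpin1 window holds none). Acss2 lies on the plus strand at chr2:155517793-155518042, Lpin1 on the minus strand at chr12:16610967-16611216, Gpam on the minus strand at chr19:55127239-55127488 and Pnpla3 on the plus strand at chr15:84167566-84167815.
Acss2: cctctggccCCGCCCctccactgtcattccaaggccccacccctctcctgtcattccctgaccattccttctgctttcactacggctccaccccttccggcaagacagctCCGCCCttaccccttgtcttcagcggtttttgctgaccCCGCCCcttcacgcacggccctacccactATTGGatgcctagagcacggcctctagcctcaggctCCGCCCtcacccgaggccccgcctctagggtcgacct
Lpin1: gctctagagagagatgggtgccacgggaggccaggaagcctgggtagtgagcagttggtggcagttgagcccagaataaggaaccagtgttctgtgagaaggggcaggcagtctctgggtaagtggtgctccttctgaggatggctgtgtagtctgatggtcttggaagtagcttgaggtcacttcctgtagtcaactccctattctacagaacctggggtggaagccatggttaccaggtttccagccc
Gpam: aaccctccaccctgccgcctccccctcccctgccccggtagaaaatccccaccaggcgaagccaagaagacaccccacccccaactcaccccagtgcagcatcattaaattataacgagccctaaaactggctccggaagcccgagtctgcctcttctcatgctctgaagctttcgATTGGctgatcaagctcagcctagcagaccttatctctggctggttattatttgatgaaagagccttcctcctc
Pnpla3: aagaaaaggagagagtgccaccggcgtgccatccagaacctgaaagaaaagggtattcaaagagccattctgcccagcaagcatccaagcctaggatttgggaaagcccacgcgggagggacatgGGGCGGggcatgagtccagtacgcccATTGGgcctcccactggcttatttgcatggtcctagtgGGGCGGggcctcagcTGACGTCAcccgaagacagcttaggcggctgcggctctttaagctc

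The motifs searched on both strands were CCAAT (NF-Y), GGGCGG (Sp1), CACGTG (E-box), TGACGTCA (cyclic AMP response element), TCACNCCAC (sterol response element), DR4 (the liver X receptor type repeat of AGGTCA) and DR1 (the PPAR type repeat), and they were chosen with these sequences in view. RefSeq windows were found for 8 of the 10 genes. Only the window at the most upstream start of each gene was searched, though Gpam had 2 listed and Lpin2 had 3. CCAAT occurred before Pnpla3, Gpam and Acss2, reading as ATTGG, with its first base 99, 74 and 73 bases before the start, and in no other of the 8. All 27025 promoters of the same length held it in 34.5%. GGGCGG was in 4 of the 8, Pnpla3, Agpat2, Lpin2 and Acss2, beside 33.0% of all promoters. Lpin2 held CACGTG, found in 6.04% of all promoters, and Pnpla3 held TGACGTCA, found in 1.6%. The Lpin1, Mogat1 and Mttp windows held none of these motifs, and the sterol, DR4 and DR1 motifs, found in 1.03%, 0.0111% and 0.037% of all promoters, were in none of the 8.

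Of 24 other genes of glycerolipid synthesis 23 were tested, 0 passed in either direction, 13 log2 fold changes were negative and the median was -0.058, with 0.013 if control replicate 1 is left out. Gpat2, a relative of Gpam, was the only 1 of them at an unadjusted p under 0.05, with 4.89 ± 0.80 CPM in HSC-PCK1-KO livers, against 6.19 ± 0.33 CPM in controls (SD, n = 4 each), and groups that did not overlap. Acsl4 and Acsl3, which activate fatty acids to acyl-CoA, had log2 fold changes of -0.27 and -0.47, and of -0.14 and -0.16 without control replicate 1. Of 16 genes of VLDL assembly and secretion, 15 were tested and 0 passed, 7 were negative and the median was 0.0051, between -0.022 and 0.055 when single libraries were left out. Apob, the structural protein of VLDL, had 4310 ± 426 CPM in HSC-PCK1-KO livers, against 4161 ± 130 CPM in controls (SD, n = 4 each), and Cideb, Vmp1 and Apobec1 had log2 fold changes of 0.15, 0.12 and -0.14, with Vmp1 at 0.048 without HSC-PCK1-KO replicate 3 and Apobec1 at -0.022 without control replicate 4.

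The lipogenic program around these genes had 18 negative log2 fold changes of 24 tested, with a median of -0.15 and 0 past the adjusted threshold. With control replicate 1 left out, 13 were negative and the median was -0.028. Acly, which makes cytosolic acetyl-CoA from citrate as Acss2 does from acetate, had 215, 282, 354 and 289 CPM in HSC-PCK1-KO replicates 1 to 4, against 633, 443, 378 and 297 CPM in control replicates 1 to 4. Its groups overlapped only in HSC-PCK1-KO replicate 3 and control replicate 4, with a log2 fold change of -0.62 (unadjusted p = 0.0255), and -0.39 without control replicate 1. Insig2, which holds SREBP in the endoplasmic reticulum, had a log2 fold change of 0.35 (unadjusted p = 0.0309), and Scap, the SREBP escort, -0.24 (unadjusted p = 0.0312). Fasn was at -0.83, and at -0.22 without control replicate 1, while Srebf1 was at -0.16 and Mlxipl, which encodes ChREBP, at -0.15, or -0.064 and -0.076 without control replicate 2. Of 8 acetyl-CoA supply genes 0 passed, 3 were negative and the median was 0.066. That median was -0.091 without control replicate 2, -0.057 with HSC-PCK1-KO replicate 2 left out, and up to 0.12 when other single libraries were. Aacs, which activates acetoacetate, was at -0.74, and at -0.28 without control replicate 1, and Pdha1, of pyruvate dehydrogenase, was at 0.13, and at 0.22 with that library left out.

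Lipases and genes of feeding state had as many negative as positive log2 fold changes. Of 15 patatin-like phospholipase relatives and cytosolic lipases 14 were tested, 0 passed, and 7 were negative, with a median of -0.0039, between -0.033 and 0.031 when single libraries were left out. Pnpla2, which encodes the main triglyceride lipase ATGL, had 69.8 ± 9.62 CPM in HSC-PCK1-KO livers, against 71.6 ± 5.30 CPM in controls (SD, n = 4 each), and Pnpla8 and Lipe had log2 fold changes of 0.10 and -0.11, with Pnpla8 at 0.053 without control replicate 4 and Lipe at -0.066 without HSC-PCK1-KO replicate 1. Of 16 fasting and feeding responsive genes 0 passed, 8 were negative and the median was -0.016. Leaving out replicate 2 of either group made 13 of the 16 negative. The 3 with the smallest p were G6pc, Pck1 and Sesn1, with log2 fold changes of -0.54, -0.78 and -0.18, and of -0.28, -0.36 and -0.096 without control replicate 2. Of 11 fatty liver genes linked to PPAR-gamma, of which Mogat1 is also a target, 0 passed, 4 were negative and the median was 0.12. The median was 0.38 with 2 negative when control replicate 1 was left out, and -0.17 with 7 negative when control replicate 2 was. The 3 with the smallest p over all 8 libraries, Fabp4, Vldlr and Plin4, had log2 fold changes of -0.28, 0.38 and 0.40. They were at -0.028, 0.72 and 0.51 without control replicate 1, and at -0.43, 0.16 and 0.091 without control replicate 2.

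Circadian clock genes, whose program sets daily swings in Lpin1 and lipogenic transcripts, had 10 negative log2 fold changes of 18 tested, with a median of -0.069 and 0 past the threshold. The median lay between -0.15 and -0.013 when single libraries were left out, with 10 to 13 negative. Ciart, a clock repressor, had 1.41 ± 0.33 CPM in HSC-PCK1-KO livers, against 2.79 ± 0.72 CPM in controls (SD, n = 4 each). Its groups did not overlap, and its log2 fold change was -0.99 (unadjusted p = 0.00181). Per3 and Tef, both clock genes, had log2 fold changes of -0.50 and -0.22. The time of day of tissue collection is not in the labels used here, and the part of clock phase or feeding in the Lpin1 and Acss2 values was not tested. Stellate cell markers had 12 negative log2 fold changes of 15, with a median of -0.23 and 0 past the adjusted threshold. At an unadjusted p under 0.05, 1 was higher and 1 lower, beside 1.02% and 1.34% of all genes. They summed to 447 to 613 CPM in HSC-PCK1-KO libraries, against 551 to 753 CPM in control libraries. Their median lay between -0.27 and -0.13 when single libraries were left out. Cholangiocyte markers had 4 negative of 5 tested (median -0.23, and 0.021 without HSC-PCK1-KO replicate 1). Kupffer cell and macrophage markers had 9 of 13 (median -0.12, and 0.23 without control replicate 4). Endothelial and lymphocyte markers had 4 of 8 and 2 of 8, with medians of 0.014 and 0.22. When single libraries were left out, the endothelial median lay between -0.031 and 0.11. The lymphocyte median was then -0.064, with 5 of 8 negative, without HSC-PCK1-KO replicate 4, and up to 0.46 without control replicate 4. Hepatocyte markers had a median of -0.013. Without the TMM factor they summed to 129454 to 142594 CPM in HSC-PCK1-KO libraries, against 134834 to 149026 CPM in control libraries. Control replicate 1 was the highest on that scale, and the order of libraries with the TMM factor was not computed. The hepatocyte median lay between -0.075 and 0.016 when single libraries were left out, with 4 to 12 of 15 negative. Mesothelial markers, of the liver's surface lining, had 5 negative log2 fold changes of 5, with a median of -1.44, 0 past the adjusted threshold, 3 lower at an unadjusted p under 0.05 and 2 with groups that did not overlap. They summed to 1.47 to 3.61 CPM in HSC-PCK1-KO libraries, against 3.48 to 10.9 CPM in control libraries. HSC-PCK1-KO replicate 1, also the lowest for Lpin1, Lpin2 and Acss2, had the lowest sum, and control replicate 1 had 10.1 CPM. All 5 were negative when any single library was left out. Their part in the results was not tested.

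The genes whose log2 CPM followed Pnpla3 most closely over the 8 libraries, by Pearson's r as a measure of likeness among 11577 genes ranked, were Rbm3, Pltp, Stk38l, Gas2l3, Rarb, Gbe1, Slbp and Borcs7, with r from 0.940 to 0.955. They were picked as the highest of many, so no p is given. Pltp, the plasma phospholipid transfer protein gene, had 88.8, 137, 64.1 and 81 CPM in HSC-PCK1-KO replicates 1 to 4, against 247, 56.1, 99.8 and 105 CPM in control replicates 1 to 4. It had the same highest and lowest libraries as Pnpla3. Over the other 7 libraries, with control replicate 1 left out, the 8 closest were Zfp1, Elk1, Entpd2, Pcsk4, Lrrc39, Snx24, Brca1 and Lnpk, with r from 0.928 to 0.959, and 0 of the 8 were shared with the first set. The first set still had r from 0.782 (Slbp) to 0.887 (Gas2l3) over those 7 libraries. Over all 8 libraries the second set had r from 0.143 (Pcsk4) to 0.890 (Elk1). Among the 10 genes described here, Gpam ranked 39 over all libraries and 2106 without control replicate 1, and Mttp had r = 0.384 over all 8 and -0.860 over the other 7.

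Pnpla5, another patatin-like phospholipase gene, is the neighbour of Pnpla3 on mouse chromosome 15 by RefSeq gene order, and it was singled out after its levels were seen. It had 12, 36, 6 and 24 counts in HSC-PCK1-KO replicates 1 to 4, against 158, 6, 58 and 35 counts in control replicates 1 to 4. In CPM these were 0.268, 0.724, 0.125 and 0.488 in HSC-PCK1-KO libraries, against 3.21, 0.142, 1.23 and 0.670 in control libraries. Control replicate 1 was the highest for both genes, and the groups overlapped in both. The log2 fold change of Pnpla5 was -1.70 (SE 0.84, unadjusted p = 0.0768 in edgeR's fit), and -0.76 without control replicate 1.

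Over the 8 libraries, log2 CPM of Pnpla5 and Pnpla3 had Pearson's r = 0.950 and Spearman's rho = 0.905, given as a description with no p, since the gene was picked for its levels. With control replicates 1 and 2, the libraries farthest from the median of Pnpla3, left out, r was 0.909, and it was 0.933 without control replicate 1 alone. Samm50, the mitochondrial outer membrane assembly gene on the other side of Pnpla3, was also named with its values known, and had 71.3, 80.5, 75.5 and 72.7 CPM in HSC-PCK1-KO replicates 1 to 4, against 91.7, 67.8, 80.1 and 71.4 CPM in control replicates 1 to 4. It too was highest in control replicate 1 and lowest in control replicate 2, over a smaller range.

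**Figure D4:**
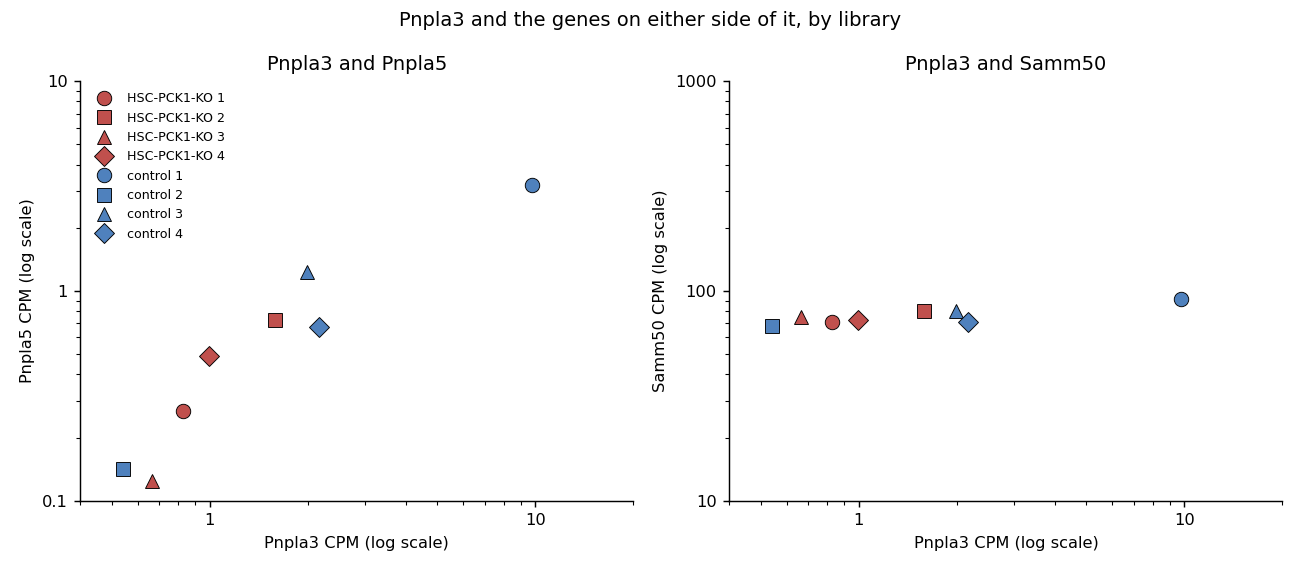
Level of Pnpla5 and of Samm50 against the level of Pnpla3 in each of the 8 libraries, in CPM on log axes, with HSC-PCK1-KO in red and control in blue. Pnpla5 spans 0.125 to 3.21 CPM and is highest where Pnpla3 is highest, while Samm50 spans 67.8 to 91.7 CPM.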

How the data were processed

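Per the labels' protocols, poly(A) RNA of snap-frozen liver was made into strand-specific libraries read in pairs of 100 bases. The authors deposited raw counts for 56953 gene identifiers, without normalization. The build was GRCm39 and R 4.3.2 was used, per the submitters' processing notes. No source used here gives the aligner, counter, annotation release or strand setting. Symbols (for 52029 identifiers) and exon lengths came from GENCODE M21 and promoters from RefSeq, both of the earlier build GRCm38. Exon lengths used the basic M21 annotation, and the shares of exon bases shared with other genes used the full one.

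Counts of all genes were fitted in R 4.3.3 with edgeR 4.0.16 (filterByExpr, TMM, robust quasi-likelihood F-test on genotype alone). The p-values were adjusted by Benjamini and Hochberg's method over the 15669 genes that passed the filter, and the threshold was 0.05. CPM were computed from the deposited counts, and log2 CPM used a prior count of 2. Exact permutation tests were two-sided. Genes named beside the 10 were Pck1, Srebf1, Mlxipl, Fasn, Apob and Pnpla2, the 3 with the smallest p in each list of related genes, and the 8 most like Pnpla3, each with and without control replicate 1, among genes with a mean of at least 1 CPM that are not predicted genes. Samm50, Alb, the adipocyte markers and the genes that share exon bases were named outside that rule. The alternatives tried were RLE scaling, upper quartile scaling, no filter, a minimum of 1 CPM in 4 libraries, DESeq2 1.42.0, limma 3.58.1 (voom with sample weights), a replicate block, an adjusted p of 0.1 and leaving out each library. The fit was tested on simulated data. The 10 genes and all lists were chosen with earlier results of these data known. No library was a copy of another of its group: the chi-square per degree of freedom between libraries of a group was 44.4 to 168. Pairs across the groups were not compared in this way.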

Additional observations from a re-analysis of the deposited data

Results flagged for a closer look

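A sample far from the others of its group was found in 2 of 28 groups of 4 values, where chance gives about 1.4. Gpam stood at 878 CPM in control replicate 1, against 334 to 362 CPM in the other 3 controls. The log2 ratio of Lpin1 to Lpin2 was -2.47 in control replicate 4, against -1.80 to -1.71 in the other 3 controls.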

How the results depend on the processing

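No gene passed in edgeR under the main settings, with 370 at an unadjusted p under 0.05. DESeq2 called 3 genes, with 422 at an unadjusted p under 0.05, and none of the 3 is among the 10. Leaving out each library in turn gave 0 to 1 genes (1 without control replicate 1), and 4 to 9 of the 10 with a negative log2 fold change, a count added after the data were seen. The sign of the log2 fold change varied without single libraries for Gpam (-0.55 to 0.054), Agpat2 (-0.096 to 0.091), Lpin2 (-0.27 to 0.032), Dgat1 (-0.048 to 0.032), Mttp (-0.10 to 0.090) and Pnpla2 (-0.13 to 0.019). Dgat1 was also at 0.0026 with upper quartile factors and 0.0015 with no filter. Pnpla3 ranged from -2.18 to -0.62, Lpin1 from -0.75 to -0.41, Acss2 from -0.81 to -0.45, Mogat1 from 0.25 to 0.94 and Dgat2 from -0.21 to -0.042, with no change of sign. The causes were not tested. Libraries with the same replicate number did not deviate together (correlations of -0.033, -0.33, -0.059 and 0.058), and with the replicate number as a block 0 genes passed and Pnpla3, Lpin1, Acss2 and Mogat1 were at -1.27, -0.62, -0.62 and 0.58, with an unadjusted p of 0.118 for Lpin1, 0.0526 for Acss2 and 0.0153 for Mogat1 in edgeR's fit. Depth limits Pnpla3, with 23 to 113 counts in 7 of the 8 libraries.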
